A study of Drosophila melanogaster with 4 samples.

Results

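X-linked promoters were examined in S2 cells, a Drosophila cell line of macrophage-like character that is known as male. A promoter was counted where a capped nascent RNA start site lay within 100 bp of the annotated 5' end of an X-linked protein-coding gene on the same strand. Histone rows were left out. By this rule 590 of 6782 start sites of 5'GRO-seq replicate 1 and 352 of 9387 of replicate 2 were X-linked promoter sites. They belonged to 704 of the 2165 X-linked protein-coding genes (32.5%, 95% exact Clopper-Pearson interval 30.5 to 34.5%). Over all 13823 protein-coding genes of the table, 33.2% had such a site.

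The series held 4 libraries of untreated S2 cells with no contrast of genotype or treatment, 2 for each assay. 5'GRO-seq captures the capped 5' ends of RNA extended in a nuclear run-on, and GRO-seq captures nascent RNA along the whole gene. The labels give late embryos as the source of the line, state no sex, and are silent on whether the replicates were grown apart, so differences between them may be technical. The GRO-seq libraries, called Sample3 and Sample4 after the authors' columns, are 2 samples of 1 group, so no test across samples could be made, and genes are not replicates. X-linked genes are therefore set beside the 8645 protein-coding genes of 2L, 3L and 3R by counts, shares and medians, and intervals cover counting error only.

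In Drosophila, males carry a single X and females a pair, and dosage compensation raises transcription of the male X. The raising is carried out by the MSL complex, made of MSL proteins, the histone acetyltransferase encoded by mof, the helicase encoded by mle and the noncoding RNAs roX1 and roX2. The complex spreads from entry sites into active X-linked genes and acetylates histone H4 over their bodies. The protein encoded by msl-2 is made only in males, where it assembles the complex, while the protein of Sxl blocks it in females.

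The genes of the complex were transcribed in both GRO-seq libraries, except that roX1 was low. Values are FPKM, reads scaled by the length of the gene's span and by the depth of the library. The male-limiting factor gene msl-2 had 12.1 FPKM in Sample3 and 15.3 in Sample4. The scaffold gene msl-1 had 27.9 and 35.7 FPKM, and the X-linked mof had 18.3 and 25.9 FPKM. The chromodomain subunit gene msl-3 had 10.2 and 8.71 FPKM, and the helicase gene mle had 19.3 and 15.8 FPKM. Of the noncoding pair, roX2 had 262 and 47.6 FPKM, whereas roX1 had 0.819 and 1.03 FPKM. Of the 7 genes listed for yolk proteins and sex determination, 4 were above 1 FPKM in both libraries. Over all protein-coding genes, 57.3% had a mean of at least 1 FPKM. The yolk protein genes were low, with Yp1 listed at 0, Yp2 at 0 and 0.748 FPKM and Yp3 at 1.5 and 2.24 FPKM. The sex determination genes tra and fru, transcribed in both sexes and regulated by splicing, had 15.7 and 22.0 FPKM and 16.5 and 19.6 FPKM. The sex determination gene dsx was low, at 0.162 and 0.123 FPKM. Sxl, transcribed in both sexes but spliced to a functional form in females, had 16.5 and 17.0 FPKM. These levels do not settle sex, which the labels leave out. Of the 14 hemocyte markers 13 were at 1 FPKM or more in both libraries, and the 3 fat body markers were at or near 0. Above 1 FPKM in both libraries were 2 of 5 neuronal, 1 of 5 muscle and 2 of 4 germline markers. The highest of each list were the neuronal elav, at 10.1 FPKM in both libraries, and the muscle factor gene Mef2, at 11.4 and 9.94 FPKM. For the germline list it was ovo, at 6.82 and 10.6 FPKM.

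Depth differed between the libraries. The 5'GRO-seq libraries held 13979543 and 6710787 reads. For GRO-seq, the whole reads behind the FPKM values came to 6572633 in the library Sample3 and 2474876 in Sample4. A median X-linked gene rested on 69 and 22 reads in that order, and a median gene of 2L, 3L and 3R on 47 and 12.

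Of the 10 genes with a promoter site in both lists that stood highest in nascent RNA, 4 encode ribosomal proteins, among them the 3 highest. The 10 were RpL35, RpS6, RpS14a, nocte, RpS15Aa, Hexo2, regucalcin, mys, Gapdh2 and CG11151. RpL35, a protein of the large ribosomal subunit (X, 5566767 to 5567576, plus strand, dm3), had 489 FPKM in Sample3 and 1140 in Sample4. Positions of sites are counted from the annotated 5' end, with upstream negative. The RpL35 site was at 5566769 in each list, position 2. RpS6, a small-subunit protein known as a target of S6 kinase (X, 7793657 to 7795364, minus strand), had 328 and 701 FPKM with its site at 7795362 in both lists. Both genes were more than 2-fold higher in Sample4. RpS15Aa went the other way, with 109 FPKM in Sample3 and 79.7 in Sample4, and started at position 6 in both lists.

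RpS14a (X, 7827775 to 7828710, plus strand) had 155 and 222 FPKM and was started at 2 bp in replicate 1 and at 43 bp in replicate 2. It lies beside a close copy, RpS14b, which had 61.8 and 67.8 FPKM and no site, and reads of such copies cannot be assigned with certainty. Of the other leading promoters, nocte, known for the resetting of the circadian clock by temperature, had 56.1 FPKM in Sample3 and 151 in Sample4. Its sites lay at position 1 in replicate 1 and at -10 in replicate 2. The integrin beta subunit gene mys was nearly equal in the libraries, with 76 and 77.9 FPKM, but its sites differed, at 95 bp and 27 bp. Gapdh2, a glycolytic enzyme, was lower in Sample4, at 47.1 FPKM against 79.7 in Sample3, with its site at 3 bp in both lists. Hexo2, a hexosaminidase, was level at 79.5 and 77.5 FPKM, and regucalcin, named for a calcium-binding protein, had 68.4 and 88.3 FPKM. CG11151 had 50.1 and 61.6 FPKM and a site 94 bp downstream of its annotated end in both lists.

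A start site was also found in both lists at genes with almost no GRO-seq signal. The 5 lowest were Ca-alpha1T, CG7378, CG12708, CG4678 and bi, and all had their site at the same base in both lists. The T-box factor gene bi (X, 4321168 to 4378485, plus strand) spans 57317 bp, had 0.058 FPKM in Sample3 and 0.141 in Sample4, and was started at 4321169 in both lists. The calcium channel gene Ca-alpha1T had 0.386 and 0.421 FPKM over 86305 bp, with a site at -14. CG7378 had 0.428 and 0.273 FPKM, and CG4678 had 0.191 and 0.197 FPKM. CG12708 was listed at 0 in Sample3 and had 0.536 FPKM, 3 reads, in Sample4. FPKM is averaged over the span, so reads confined to a long gene's start give a low value. CG15646, chosen after its values were seen, was the only member listed at 0 in both libraries, with a site in replicate 1 alone.

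Conversely, some of the highest X-linked genes had no site. The 5 highest without one were RpL17, sta, RpS10b, Act5C and RpS19a. RpL17 had 1220 FPKM in Sample3 and 1230 in Sample4, and its nearest site on the strand lay at -1049 in both lists. Act5C, a cytoplasmic actin, had 588 and 912 FPKM and a nearest site at -1112 in both lists. RpS19a had 454 and 1020 FPKM and its nearest site at -242, and RpS10b had 469 and 1230 FPKM and its nearest site at -372, again in both lists. At sta, a ribosomal protein gene with 627 and 1170 FPKM, replicate 1 had its nearest site at -266 and replicate 2 had none near. At the other 4 genes the lists held the same site outside the limit of 100 bp, and whether it belonged to the gene was not tested. Only the 5' end of the transcript listed for each gene was searched, so a site at another annotated start was not counted. Act5C has close actin relatives, so its reads are uncertain. Since HOMER demanded a 4-fold excess over the control library, a missing call does not show a missing start.

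**Figure D1:**
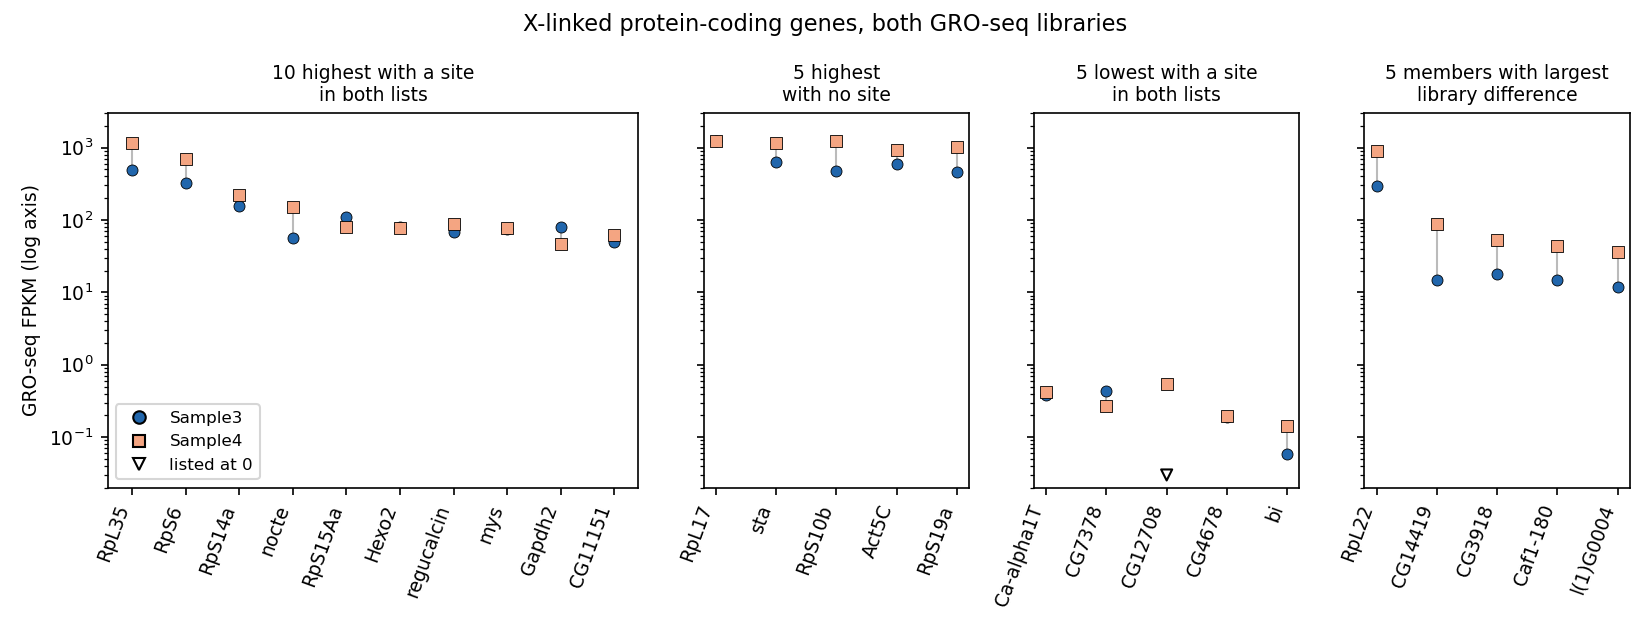
GRO-seq FPKM (log axis) of X-linked genes in Sample3 (circles) and Sample4 (squares), joined by a line, in 4 sets fixed by rule; open triangles mark a value listed at 0 and are placed at the foot of the axis. The 5 highest genes with no site lie between 454 and 1230 FPKM, and the 5 lowest with a site in both lists lie at or under 0.536 FPKM.

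X-linked start sites lay just downstream of annotated 5' ends. In replicate 1 the median position was 7 bp downstream (quartiles 2 and 29 bp), and in replicate 2 it was 8 bp (quartiles 2 and 32 bp). On 2L, 3L and 3R the medians were 6 and 8 bp. Within 10 bp of the end lay 46.1% of the X-linked sites in replicate 1 (42.0 to 50.2%, exact interval) and 42.0% in replicate 2 (36.8 to 47.4%). The autosomal shares were 50.6% (48.6 to 52.6%) and 45.4% (42.8 to 48.0%). The X-linked share was the lower in each list, and the intervals overlapped. Upstream of the annotated end lay 85 of the 590 X-linked sites and 56 of the 352.

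**Figure D2:**
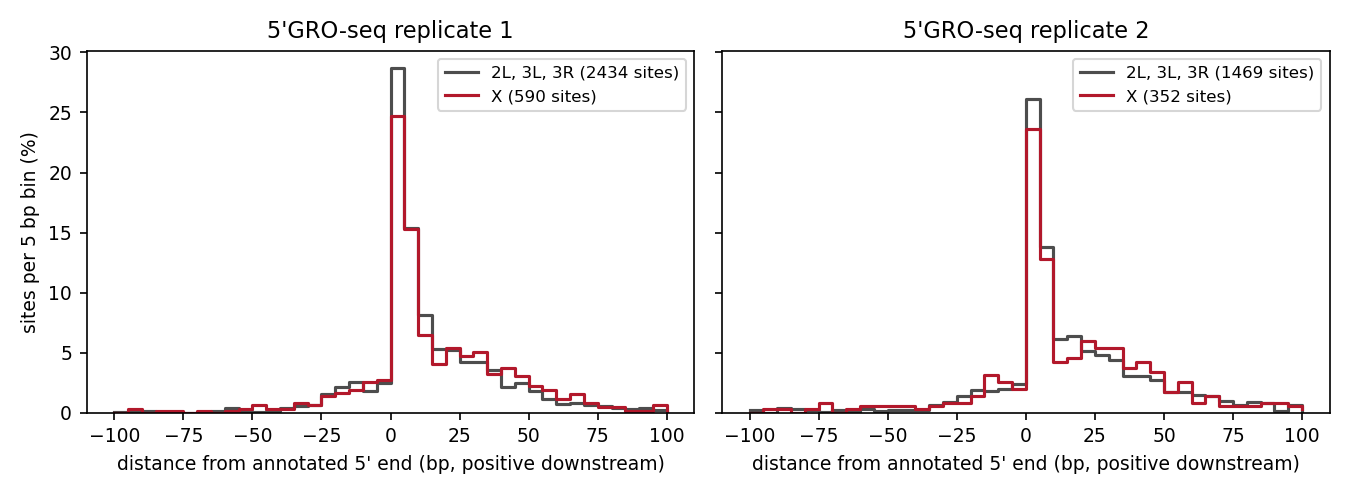
Distance of start sites from the annotated 5' end (bp, positive downstream), as the percentage of sites per 5 bp bin, for X and for 2L, 3L and 3R in each list. Both curves peak just downstream of the end, with medians of 7 and 8 bp for X.

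Few X-linked sites stood close to the limit of 100 bp. In replicate 1 the site at rdgA, a diacylglycerol kinase gene, lay at 100 bp and the one at CG6379 at 99 bp, while the nearest outside were at Nat1, 102 bp, and CG12177, 104 bp. In replicate 2 the site at exd, a Hox cofactor gene, lay at 100 bp and the nearest outside at alpha-Man-I, position -107, and CG2918, 108 bp. A further 38 X-linked sites in replicate 1 and 63 in replicate 2 lay beyond 100 and up to 500 bp away.

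Part of the X-linked promoters had the same start in both lists. A site in both was present at 244 X-linked genes (11.3%), against 12.6% of all protein-coding genes and 13.0% of those on 2L, 3L and 3R. Replicate 1 alone had a site at 349 genes and replicate 2 alone at 111. Of the 244 genes, 155 (63.5%) had both sites at the same base, compared with 67.3% of 1122 autosomal genes. At 21 genes the sites lay more than 50 bp apart. The farthest apart were Tob, a BTG family regulator, with sites 116 bp apart, and exd and Hmr, the hybrid male rescue gene, with 97 bp each. Counted as sites, 170 X-linked sites recurred within 5 bp, 28.8% of replicate 1 (25.2 to 32.7%) and 48.3% of replicate 2 (43.0 to 53.7%). The autosomal shares were 33.3% (31.4 to 35.2%) and 55.2% (52.6 to 57.8%). After a shift of 1000 bp no X-linked site recurred. This says little, because the shift takes the sites away from the annotated ends near which they were chosen.

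X-linked promoter sites stood later in the file of replicate 1 and had fewer partners on the opposite strand. Among those of replicate 1, 73 of 590 (12.4%, 9.83 to 15.3%) were in the leading 1000 rows, against 19.0% (17.5 to 20.6%) on 2L, 3L and 3R. In replicate 2 the shares were 21.6% (17.4 to 26.3%) and 23.4% (21.3 to 25.7%). On 3R alone they were 16.9% (14.6 to 19.5%) in replicate 1 and 21.2% (17.9 to 24.8%) in replicate 2. Both intervals overlapped those of the X. The meaning of the file order is not given in the sources used here. A site of the same list on the opposite strand, up to 500 bp upstream, accompanied 23.1% (19.7 to 26.7%) of X-linked sites in replicate 1 and 10.2% (7.27 to 13.9%) in replicate 2. The autosomal shares were 29.2% (27.4 to 31.0%) and 15.9% (14.0 to 17.8%). By arm, replicate 1 had 28.3% (25.0 to 31.7%) on 2L, 26.6% (23.5 to 29.9%) on 3L and 32.0% (29.0 to 35.0%) on 3R. The intervals of 2L and 3L overlapped that of the X, and that of 3R did not. In replicate 2 the arms had 14.0% (10.8 to 17.6%), 16.8% (13.5 to 20.5%) and 16.6% (13.6 to 19.9%), all overlapping the X. Gene spacing was not matched between the arms.

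Called promoters differed little in frequency between the X and the other arms over all genes, and were less frequent on the X among well transcribed ones. In replicate 1, 593 X-linked genes (27.4%, 25.5 to 29.3%) had a site, against 28.8% (27.9 to 29.8%) on 2L, 3L and 3R and 28.7% of all protein-coding genes. In replicate 2 the values were 355 genes (16.4%, 14.9 to 18.0%), 17.4% (16.6 to 18.3%) and 17.1%. The intervals overlapped in both lists. For a site in either list the X minus autosome difference was -0.77 percentage points at 100 bp and 0.26 at a limit of 500 bp, so its direction turned with the limit. Among genes with a mean of 10 to under 50 FPKM, 47.3% (43.5 to 51.1%) of 677 X-linked genes had a site in replicate 1, compared with 53.7% (51.7 to 55.7%) of 2485 autosomal genes. In replicate 2 the shares were 30.7% (27.3 to 34.4%) and 35.9% (34.0 to 37.8%). X was the lower in both lists, with intervals that were apart in replicate 1 and met in replicate 2. At 50 FPKM and over, 31 of 69 X-linked genes (44.9%, 32.9 to 57.4%) had a site in either list, against 57.3% (52.5 to 62.1%) of 422. A GRO-seq library was also the control for calling sites, so calls and level classes are not independent. The part of this in the differences was not tested.

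**Figure D3:**
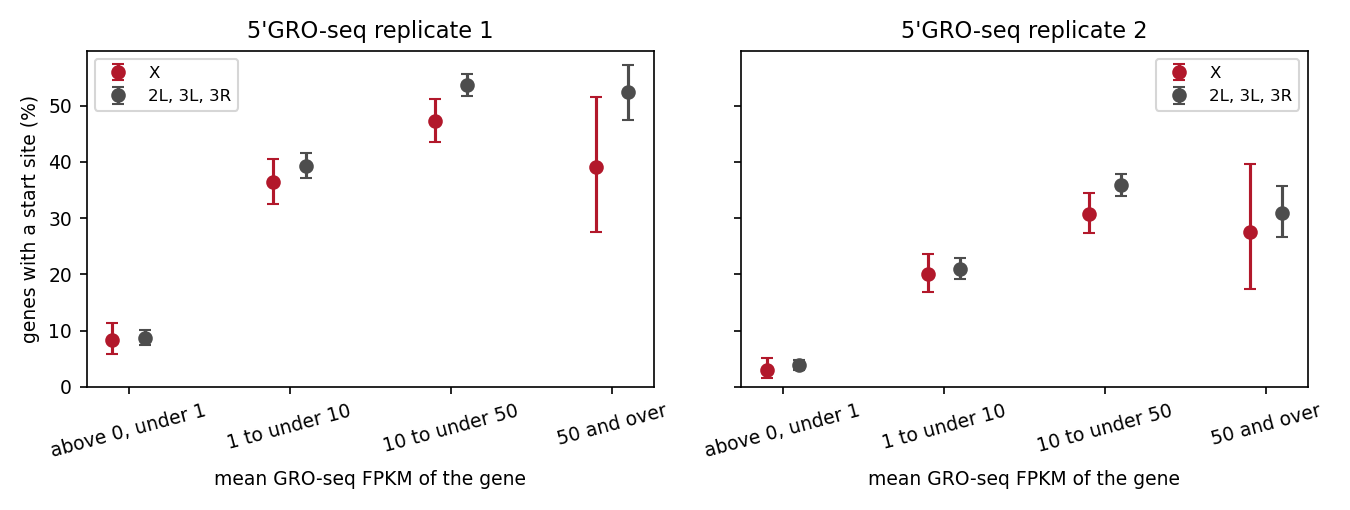
Percentage of genes with a start site within 100 bp, by mean GRO-seq FPKM of the gene, for X and for 2L, 3L and 3R in each list; bars are 95% exact Clopper-Pearson intervals. X lies below the autosomal arms in every class shown, with overlapping intervals except at 10 to under 50 FPKM in replicate 1.

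In nascent RNA, the X held slightly smaller shares of genes at 0 and of genes at the very top than the autosomal arms. No interval was computed for these shares. Of 2165 X-linked genes 416 (19.2%) were listed at 0 in both libraries, against 21.4% of 8645, and 21.0% of all protein-coding genes. On 3R alone the share was 19.7%, close to that of the X. A mean of at least 1 FPKM was reached by 1318 X-linked genes (60.9%), against 56.2% on 2L, 3L and 3R and 57.3% of all. At the top the order turned, on few genes: 23 X-linked genes (1.06%) and 141 autosomal genes (1.63%) had a mean of 100 FPKM or more. By arm the shares were 1.97% on 2L, 1.43% on 3L and 1.53% on 3R. The median over all X-linked genes was 4.44 FPKM in Sample3 and 3.94 in Sample4, against 3.26 and 2.17 FPKM. On the log2(FPKM + 1) scale, which understates differences of low genes, the X-linked median was higher by 0.35 in Sample3 and by 0.64 in Sample4. Span moved with this difference, with medians over all genes of 2287 bp on the X and 1954 bp on the others. Among genes spanning 1 to 10 kb the difference was 0.01 in Sample3, from medians of 6.73 and 6.67 FPKM, and 0.25 in Sample4, from 5.98 and 4.86 FPKM.

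Among transcribed genes the X median was below that of the autosomal arms in Sample3, and near it on either side in Sample4. With a mean of at least 1 FPKM, X-linked genes had a median of 10.9 FPKM in Sample3 (quartiles 6 and 18.0) against 13.3 FPKM (quartiles 6.94 and 23.9), a ratio of 0.821. In Sample4 both medians were 11.5 FPKM, a ratio of 1.00, with quartiles of 5.29 and 22.3 for X and 5.20 and 22.4 for 2L, 3L and 3R. For genes with a called promoter the ratio was 0.814 in Sample3, from medians of 11.2 and 13.8 FPKM. In Sample4 it was 0.986, from 11.7 and 11.8 FPKM. With a mean of at least 10 FPKM the ratios were 0.806 in Sample3 and 1.05 in Sample4, and for genes of at least 1 FPKM without a site 0.889 and 1.07. The median span of genes of at least 1 FPKM was 2571 bp on the X and 2287 bp on the others. Restricted to spans of 1 to 10 kb and at least 1 FPKM, the ratios were 0.806 and 0.983.

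**Figure D4:**
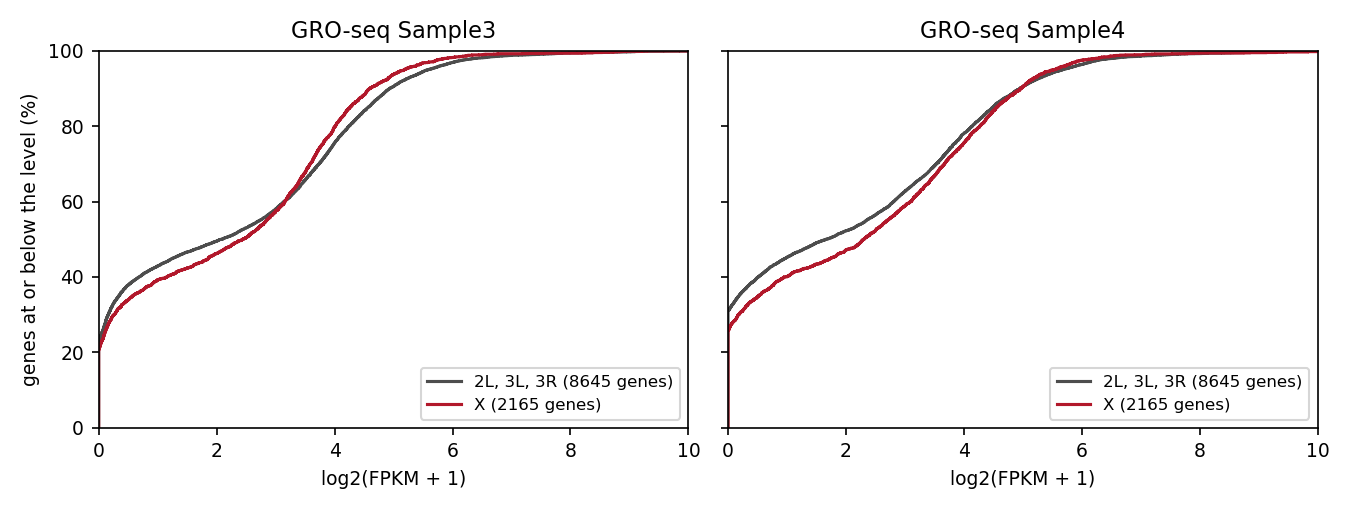
Cumulative percentage of protein-coding genes at or below each GRO-seq level, log2(FPKM + 1), for X (2165 genes) and for 2L, 3L and 3R (8645 genes) in each library. The X curve starts lower at 0, and in Sample3 it crosses above the autosomal curve where levels are higher.

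The X stood apart from 2L, 3L and 3R in how the GRO-seq libraries differed. With a floor of 10 FPKM in each library, set after the data were seen, 475 of 642 X-linked genes (74.0%) were higher in Sample4, against 54.6% of all 4110 protein-coding genes so filtered and 50.2% of the 2534 on 2L, 3L and 3R. The median X-linked log2 difference, Sample4 minus Sample3, was 0.30 (quartiles -0.02 and 0.61), a ratio of 1.23. The arms 2L, 3L and 3R had medians of 0.00, -0.02 and 0.02. Sample4 exceeded Sample3 by 1.5-fold or more at 175 X-linked genes (27.3%), against 14.6% of all genes and 12.3% on the autosomal arms. Sample3 exceeded Sample4 by as much at 29 (4.52%), against 12.2% of all genes and 13.9%. With a floor of 1 FPKM both medians were lower, at 0.15 for 1269 X-linked genes and -0.16 for 4648 autosomal genes. The X held 14.3% of the reads of protein-coding genes in Sample3 and 16.9% in Sample4.

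The X-linked shift ran along the chromosome and through classes of genes. In the 17 of 20 cytological divisions with at least 20 such genes, the median lay between 0.03 (division 13) and 0.41 (division 10). Division 20, with 11 such genes, had a median of -0.01. It was 0.25 for X-linked genes with a site and 0.35 for those without, against -0.01 and 0.04 on 2L, 3L and 3R. By span it was 0.25 under 2 kb, 0.30 from 2 to 10 kb and 0.40 at 10 kb and over, where the autosomal medians were -0.03, 0.02 and 0.03. By mean level it was 0.19 under 20 FPKM, 0.39 from 20 to 50 and 0.41 at 50 and over, with autosomal medians of -0.07, 0.03 and 0.24. At 50 and over the arms 2L, 3L and 3R had 0.18, 0.21 and 0.31, so 3R came nearest to the X. The fourth chromosome moved the opposite way, with a median of -0.49 over 23 genes. With at least 100 reads in each library the medians were 0.35 for 594 X-linked genes and 0.06 for 1992 genes of 2L, 3L and 3R. With 1 library on each side there is no replicate check of these differences, Sample4 was the shallower library, and the part of depth in the shift was not tested.

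**Figure D5:**
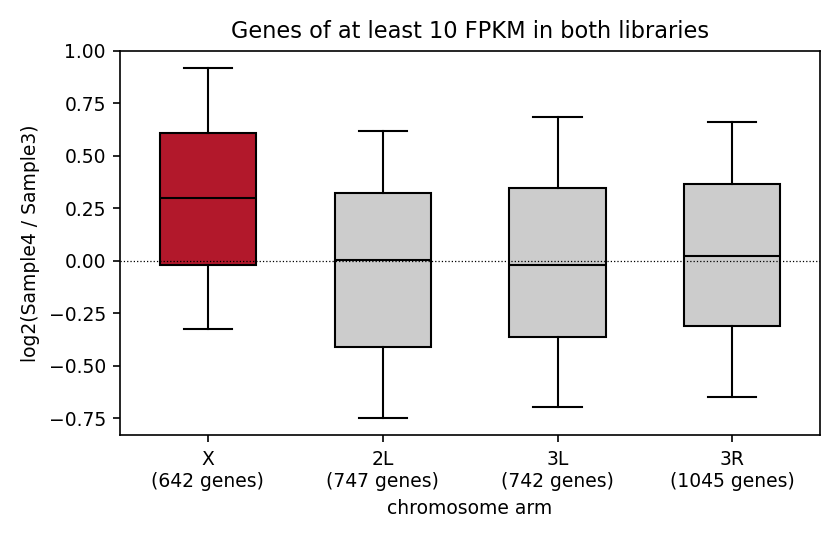
log2 ratio of Sample4 to Sample3 FPKM for genes reaching 10 FPKM in each library, by chromosome arm; lines are medians, boxes quartiles and whiskers the 10th and 90th percentiles of genes. The X median is 0.30, and those of 2L, 3L and 3R are 0.00, -0.02 and 0.02.

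Among members above the floor of 10 FPKM in each library, the 5 with the largest difference were all higher in Sample4. Below that floor larger differences ran the other way, as at CG43088, chosen after its values were seen, with 7.04 FPKM in Sample3 and 0.624 in Sample4. They were CG14419, RpL22, l(1)G0004, CG3918 and the gene for the large subunit of chromatin assembly factor 1. CG14419 had 14.8 FPKM in Sample3 and 87.1 in Sample4, from 71 reads and 157 reads. CG3918 had 18.1 and 52.7 FPKM, and l(1)G0004 had 11.8 and 35.6 FPKM. The ribosomal protein gene RpL22 had 290 and 909 FPKM and a site in replicate 1 alone, at position 6. The chromatin assembly factor gene (X, 8496170 to 8500337, minus strand), whose product helps deposit histones behind the replication fork, had 14.8 and 44.0 FPKM, with a site at position 24 in both lists.

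Gene groups on the X were compared by lists drawn up from textbook knowledge, with earlier results of these data known. Medians of 386 FPKM in Sample3 and of 653 in Sample4 were found for the 14 X-linked genes of cytoplasmic ribosomal proteins, and 12 of 14 were higher in Sample4. That is near the 56 of 69 (81.2%) of all X-linked genes above the floor with a mean of 50 FPKM and over. The list took symbols starting RpL or RpS, so sta, described above, is not among the 14. Of the 14, 6 (42.9%) had a site, all in replicate 1 within 10 bp of the annotated end. That is near the 44.9% (32.9 to 57.4%) of all X-linked genes of 50 FPKM and over. On 2L, 3L and 3R, 38 of 55 (69.1%) had one, against 57.3% (52.5 to 62.1%) of all genes of 50 FPKM and over there. The autosomal counterparts of the 14 stood at medians of 409 and 544 FPKM, and 30 of the 49 above the floor were higher in Sample4. Of all genes of these arms above the floor with a mean of 50 FPKM and over, 64.7% were. The highest X-linked gene of the list was RpL17 and the lowest RpS14b, both without a site. For the 11 X-linked mitochondrial ribosomal protein genes the medians were 13.0 and 10.4 FPKM, and 8 (72.7%) had a site. On 2L, 3L and 3R 39 of 50 (78%) had one, and of all X-linked genes of at least 1 FPKM 50.2%. The highest, mRpS30, had 19.3 and 19.7 FPKM and no site, and the lowest, mRpL14, had 6.53 and 4.96 FPKM.

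All 17 chromatin and transcription genes above the floor were higher in Sample4, with a median log2 difference of 0.55, beside 475 of 642 and 0.30 for the X as a whole. The list had 23 X-linked genes, with medians of 16.1 and 21.6 FPKM, and 13 had a site (56.5%). Of all X-linked genes of at least 1 FPKM, 50.2% had one. The acetyltransferase gene nej, the fly CBP, had 29.1 FPKM in Sample3 and 52.5 in Sample4 and a site at position 43 in replicate 1. RpII215, the largest subunit of RNA polymerase II, had 33.6 and 46.2 FPKM and no site. The lowest was br, an ecdysone response factor, with 3.74 and 8.45 FPKM. The Polycomb genes ph-d and ph-p, chosen after their values were seen, are tandem copies whose reads are uncertain. Each had its site at -31 in both lists, at 17.4 and 21.6 FPKM for ph-d and 6.09 and 7.06 FPKM for ph-p.

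For the remaining lists the X as a whole gives the comparison: 74.0% of its genes above the floor were higher in Sample4, and 50.2% of its genes of at least 1 FPKM had a site. Signalling genes were near both, with 10 of 12 higher in Sample4 and 11 of 19 carrying a site. Cdc42, a small GTPase of cell polarity, had 40.8 FPKM in Sample3 and 87.3 in Sample4, and its site in replicate 2 lay at -2. PGRP-SA, a recognition receptor for bacteria in the Toll pathway, had 63.5 and 47.9 FPKM and no site. The lowest was flw, a protein phosphatase 1 catalytic subunit, with 4.66 and 5.21 FPKM and a site at 7 bp in replicate 1.

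In the cell cycle list 2 of the 5 genes above the floor were higher in Sample4, with a median log2 difference of -0.08. Of its 10 genes 8 had a site. The kinesin gene Klp10A, which acts on spindle microtubules, had 19.9 FPKM in Sample3 and 26.7 in Sample4, with sites at 62 bp in replicate 1 and 8 bp in replicate 2. Its relative Klp3A had 18.3 and 18.9 FPKM. The lowest, mei-41, a DNA damage checkpoint kinase of the ATR family, had 5.02 and 2.68 FPKM. Mcm6, a subunit of the replicative helicase, had 14.5 and 13.8 FPKM and no site.

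Among cytoskeleton, adhesion and traffic genes 6 of 12 had a site, and 5 of 8 above the floor were higher in Sample4, counts too small to set apart from the X as a whole. Moe, the fly moesin, which links actin to the membrane, had 145 FPKM in Sample3 and 252 in Sample4, without a site. The integrin alpha subunit gene if was lowest at 0.959 and 0.362 FPKM. For metabolism and chaperones the counts were 6 of 12 with a site and 7 of 10 higher, close to those of the X. The endoplasmic reticulum chaperone gene Hsc70-3 had 301 and 459 FPKM and no site within the limit, the nearest in replicate 1 lying at -239. The adenine nucleotide carrier gene sesB had 74.9 and 77.0 FPKM, with a site 5 bp inside its end in replicate 1. It lies within the span of Ant2 on the same strand, so reads there cannot be assigned to either gene with certainty.

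Tissue-restricted genes ranged from 0 to the level of Sxl. Of 25 such genes on the X 10 had a mean of at least 1 FPKM, 5 were listed at 0 in both libraries, and 5 (20%) had a site. Over all X-linked genes the shares were 60.9%, 19.2% and 32.5% in that order. The medians of the 25 came to 0.489 and 0.519 FPKM in Sample3 and Sample4. Sxl was the highest (X, 6978197 to 6992089, minus strand), with its site at 6992086 in each list, position 3. The homeobox gene ct had 13.8 and 19.6 FPKM and no site. The clock gene per, chosen after its values were seen, had 2.03 and 1.01 FPKM and a site exactly at its annotated end in both lists. The neural factor gene l(1)sc was listed at 0 in both libraries.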

How the data were processed

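Per the file headers, the authors ran HOMER in tss mode on each 5'GRO-seq library, with a GRO-seq library of the same number as control (4-fold, FDR 0.001). The deposited intervals span 151 bp, and their score is 1 throughout and was not used. The GRO-seq values were deposited as FPKM, per the file headers, and are not counts. CASAVA 1.8.2, Bowtie2 2.1.0, HOMER 4.7 and dm3 are named in the submitters' processing notes, and how reads were aligned is not given in the sources used here. The FPKM columns name no replicate number and were used as libraries of 1 group.

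From these files, the interval's centre served as the site, and the nearest same-strand 5' end was found. Recovered reads came from low FPKM values, whose products with the span were whole multiples of 1 step (tolerance 0.1 read). They served for depth and read counts alone. Functions were tested on simulated data with known answers. Of 2165 X-linked accessions 2142 were found on X in a RefSeq table of a later assembly, and the authors' symbols were kept. Motifs and sequences were not analysed here.

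Named genes are the 10 highest and 5 lowest with a site in both lists, the 5 highest with no site, the 5 largest library differences among members of at least 10 FPKM in both, the 3 with sites farthest apart, the sites next to the limit, and up to 4 per list. The members and lists were chosen with earlier results of these data known, so no set test, adjusted p or chance test was made. Computation used Python 3.11.15, numpy 2.4.6, pandas 2.3.3, scipy 1.17.1 and matplotlib 3.10.9.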

Additional observations from a re-analysis of the deposited data

How the results depend on the processing

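Alternatives varied the distance limit, the lists, the libraries, the genes counted, the pseudocount and the reference arms. Of 52 values under alternatives, 23 moved by less than the spread used (between lists, libraries, autosomal arms, or the counting interval), 25 moved by more and 4 changed sign. The share of X-linked genes with a site, 32.5%, was 15.2% at 10 bp, 50.2% and 55.2% among genes of at least 1 and 10 FPKM, 11.3% with a site required in both lists, and 16.4 to 27.4% without a list. The autosomal share, 33.3%, was 17.3%, 55.2%, 61.7% and 13.0% under the same settings, and 17.4 to 28.8% without a list. Their difference, -0.77 percentage points, was -2.18 at 10 bp, -1.57 at 50 bp and 0.26 at 500 bp, so its sign turned there. It was -4.94 and -6.49 at 1 and 10 FPKM, -1.57 for spans of 1 to 10 kb, -1.71 with both lists required, and -1.44 to -1.05 without a list. The X minus autosome difference of median log2(FPKM + 1), 0.45, turned to -0.12 and -0.11 among genes of at least 1 and 10 FPKM and to -0.16 among genes with a site. Without those limits on genes, the difference was 0.11 for spans of 1 to 10 kb, 0.66 against 3L, 0.23 against 3R, and 0.35 to 0.64 with 1 library. The X-linked share of sites in both lists, 28.8% of replicate 1, was 33.2% within 25 bp. The median offset, 7 bp over both lists, was 6 bp with a limit of 50 bp and 7 to 8 bp without a list. The X minus autosome difference of the library log2 ratio, 0.30, was 0.26 for genes with a site and 0.32 against 3L, and 0.27 to 0.31 under the other alternatives. All alternatives for that ratio, the requirement of both lists, and the level and span limits on the autosomal share were chosen after seeing the data. The cause of these movements was not tested. No paired analysis was possible because the FPKM columns carry no replicate number and no groups were compared by a test. Depth limits the levels of low genes, above all in Sample4.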
